A study of Mus musculus with 18 samples.

Results

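The middle VH segments of the mouse immunoglobulin heavy chain locus (Igh) were taken as all fragment ends lying between 500 kb and 1.5 Mb from the 4C bait on the side of the variable genes (mm10, chr12:113926026-114926025). Position alone chose them, and no measured value was used beyond an end being listed in at least 1 library. The interval held 2601 fragment ends out of 440025 listed over the 18 libraries, of which 56916 lay on chromosome 12. The neighbouring proximal VH segments, from 100 kb to 500 kb, held 1052 ends, and the distal VH segments, from 1.5 Mb to 2.6 Mb, held 2033.

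Contacts were measured by 4C-seq, in which every fragment ligated to a single bait is amplified by inverse PCR and sequenced. The bait lay in Eμ, the intronic enhancer of Igh (mm10, chr12:113426025-113426048). The cells were CD43-negative splenic B cells of the mouse, either wild type (WT) or labelled as a Med1 mutant. Med1 belongs to Mediator, the large coactivator through which factors bound at enhancers reach the transcription machinery. The comparisons ask how activation and the Med1 mutation bear on the contacts of the enhancer.

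There were 6 groups of 3 libraries. WT and Med1 mutant cells were taken at rest on day 0, after culture for 2 days with the bacterial product LPS and the cytokine IL4, or, in a later deposit, after culture for 2 days with LPS alone. All 6 groups share the cell type, the fixation with formaldehyde and the enzymes DpnII and Csp6I. The titles of the mutant samples read Med1KO or MED1KO. Beyond this name the labels do not give the kind of Med1 mutation, a Cre driver, the age of the mice or whether animals were pooled. In addition, 4C-seq of genomic DNA can check neither the loss of Med1 nor a cell type marker. For WT LPS + IL4 replicate 2 the growth label names an antibody to CD40 with IL4 in place of LPS, and the library was kept in the group its other labels give. The labels do not say that replicates are separate animals, so the p-values below measure the spread between these libraries, which may be technical.

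A VH gene supplies the variable part of an antibody heavy chain after the recombinase joins it to a D and a J segment. In developing B cells the locus contracts, which brings distant VH genes near the recombination centre around the J segments and Eμ. VH genes of the mouse point toward the constant region, so the promoter of each lies on its side away from the bait, and only the promoter of the rearranged gene comes under the control of Eμ. In mature B cells an allele that joined a VH gene farther out has lost the DNA between that gene and the D segment. In bulk cells a smaller number of alleles that still carry the middle VH segments and fewer contacts per allele therefore cannot be told apart.

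The RefSeq annotation placed 86 of the 183 Ighv genes of the locus in the interval, 53 of them listed as V segments and 33 as V pseudogenes. Ighv14-1 (chr12:113931953-113932246) was the first of them from the bait and Ighv1-40 (chr12:114924941-114925233) the last. They came from 15 families, against 4 families among the 34 proximal genes and 2 among the 63 distal genes. The proximal segments were made mainly of Ighv5 (20 genes) and Ighv2 (11 genes), and the distal segments of Ighv1 (49 genes) and Ighv8 (14 genes). In the middle segments Ighv1, the large family known as J558, held 43 genes, which is 50% of them. Its first member, Ighv1-1, began at position 114351705, so the side nearer to the bait was a mixture of small families and the farther side was almost all Ighv1. Density of mapped ends was 2.601 per kb in the middle segments, 2.63 in the proximal and 1.85 in the distal segments.

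The supplied RefSeq sequence tables (GRCm38.p6) held a pair of miRNA hairpins annotated within the interval, and these are shown because they illustrate how closely VH1 genes repeat each other. Both lay on the minus strand, just beyond the promoter-side boundary of a VH gene, Mir7094-1 (chr12:114469407-114469466) at 36 bp from Ighv1-2 and Mir7094-2 (chr12:114513635-114513694) at 12 bp from Ighv1-5. Each is written 5′ to 3′ over its 60 bases, and the capital marks the base that differs.
Mir7094-1: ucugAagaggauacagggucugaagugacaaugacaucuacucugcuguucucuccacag
Mir7094-2: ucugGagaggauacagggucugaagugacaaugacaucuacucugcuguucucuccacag
Counted from the 5′ end of the hairpin, A5G was the sole difference between them. Short reads from repeats of this kind can match more than 1 gene.

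A pair of ends in the read counts moved together more closely than any other. Among the 65 ends with at least 20 reads in each of the 12 libraries with read counts, the log2 ratio of reads between a pair of ends varied over libraries with a median SD of 1.095 over 2080 pairs. The ends beside the pseudogenes Ighv1-28 (start 114809841) and Ighv1-30 (start 114817513), 7672 bp apart, had an SD of 0.08, and the next smallest SD was 0.35. Their read ratio lay between 0.762 and 0.959 in all 12 libraries, with a median of 0.908, and both were covered in 18 of 18 libraries. The values at this pair are therefore given as uncertain, since reads of near-identical copies could be split between them; whether they were was not tested.

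The 12 libraries with read counts held 2470497 to 21074434 reads. Every mutant library except LPS + IL4 replicate 2, the deepest of all, held fewer reads than each WT library. The LPS files list covered ends with no count, so their depth is unknown; they listed 47312 to 65512 ends. At 90 ends on chromosome 12, none of them in the middle VH segments, reads divided the 12 libraries into a set of 6 and its complement that no label names, with 2 WT and 1 mutant library per day in one set and 1 WT and 2 mutant libraries per day in the other. Values within each set are given below for the whole interval, for window 14 and for the ratios to the neighbouring segments, and were not computed for other windows or for families.

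Reads in the middle VH segments numbered 83474 to 915251 per library. The number of its 2601 ends that were covered was 919, 842 and 1009 in WT resting cells, 1305, 1175 and 1233 in WT cells with LPS + IL4, 712, 800 and 816 in mutant resting cells and 907, 1508 and 1243 in mutant cells with LPS + IL4. With LPS alone it was 1063, 868 and 1081 in WT cells and 856, 980 and 668 in mutant cells. All 3 mutant resting libraries lay below all 3 WT resting libraries, and the other genotype pairs overlapped; the mutant resting libraries were also shallower, and the part of depth in this was not tested. Of the 2601 ends, 81 (3.11%) were covered in all 18 libraries and 358 (13.8%) in 1 library only. The 10 ends with the most reads held 13.1% to 18.3% of the reads of the interval, and 55 to 97 ends held 50% of them, so a group value rests on few fragments rather than on all members. PCR reads without molecular identifiers are not independent molecules.

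As a percentage of the chromosome 12 reads more than 5 kb from the bait, the middle VH segments took 8.34, 8.07 and 8.87 in WT resting cells and 10.58, 10.18 and 9.71 in WT cells with LPS + IL4. In mutant cells the percentages were 8.22, 8.46 and 8.23 at rest and 8.92, 8.98 and 9.19 with LPS + IL4. The WT LPS + IL4 libraries were the 3 highest of the 12, the mutant LPS + IL4 libraries stood between them and all resting libraries, and the resting libraries of both genotypes overlapped. Group means were 8.43% ± 0.407 (SD, n = 3), 10.2% ± 0.434, 8.30% ± 0.136 and 9.03% ± 0.142 in the same order. Per kb, the interval received a median of 89.0 CPM over the 12 libraries (80.7 to 106), where CPM is the usual count per library total, with those chromosome 12 reads as the total. The proximal segments received 126 CPM per kb (120 to 156) and the distal segments 48.2 (26.4 to 57.1). The ranges did not overlap, so contact density fell from proximal to middle to distal in each of the 12 libraries.

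**Figure D1:**
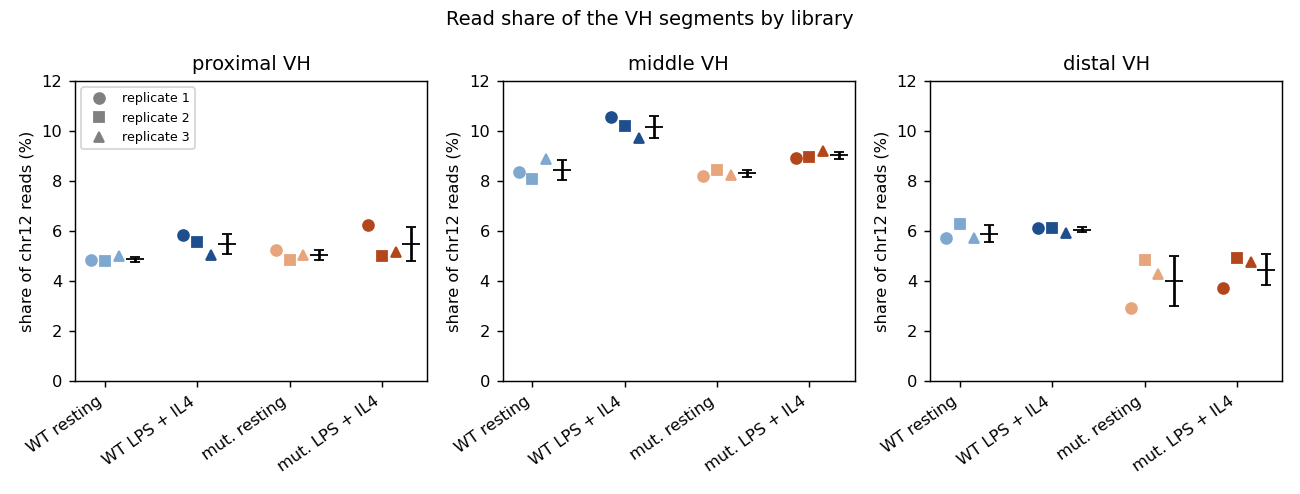
Share of chromosome 12 reads more than 5 kb from the bait, in percent, that fell in the proximal, middle and distal VH segments; points are the 12 libraries with read counts, and bars mark the mean ± SD of each group (n = 3). In the middle segments the WT LPS + IL4 libraries (9.71% to 10.58%) lie above the other 9, and in the distal segments the mutant groups have the lower means.

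Within the interval the contacts were uneven. Cut into 20 windows of 50 kb numbered from the bait, mean levels over 12 libraries ran from 1422 ± 790 CPM (SD, n = 12) to 9073 ± 2632 CPM, a ratio of 6.38, and the 5 highest windows held 42.5% of the reads (39.2% to 44.8% by library). Window 14 (chr12:114576026-114626025), with 4 genes from Ighv1-9 to Ighv1-12, was the highest. Window 8 (chr12:114276026-114326025; 8330 ± 1499 CPM) runs from Ighv3-6 to Ighv3-8, genes of a small family in which several members are functional. Window 13 (chr12:114526026-114576025; 8034 ± 1029 CPM) runs from Ighv1-6 to Ighv15-2, and window 12 (chr12:114476026-114526025; 7040 ± 1037 CPM) from Ighv10-1 to Ighv10-3, so windows 12 to 14 form a block of high contact at the boundary between the mixed families and the Ighv1 array. The fifth was window 18 (chr12:114776026-114826025; 5654 ± 1652 CPM), from Ighv1-25 to Ighv1-30, which holds the uncertain pair of ends named above.

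The lowest were window 7 (chr12:114226026-114276025; 1422 CPM), from Ighv3-4 to Ighv13-1, and window 1 (chr12:113926026-113976025; 1784 ± 393 CPM), from Ighv14-1 to Ighv3-1. Window 7 lies directly beside the high window 8, and window 1 is the nearest to the bait. Level did not fall with distance inside the interval: across the 20 windows Spearman's rho of the mean CPM was 0.28 with distance from the bait, 0.28 with the number of ends and 0.49 with the number of Ighv genes. These coefficients are descriptions over neighbouring windows of the same 12 libraries, which are not independent points.

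**Figure D2:**
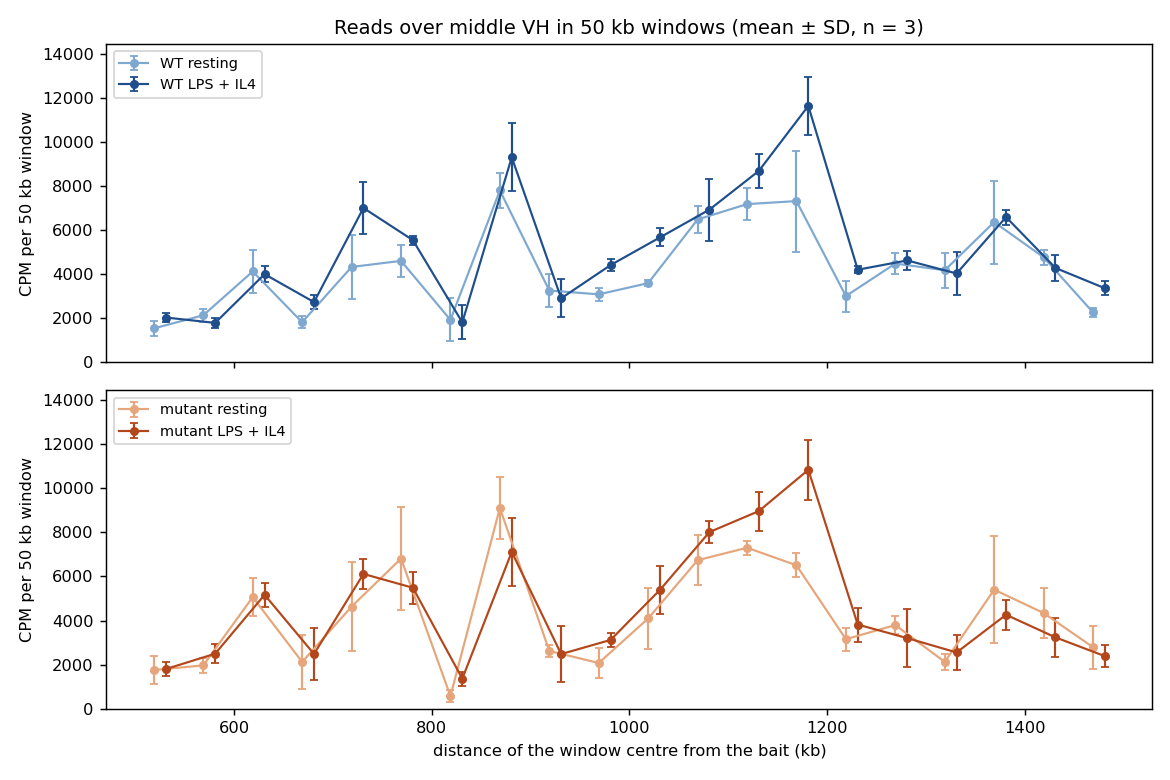
Mean CPM in each of the 20 windows of 50 kb, plotted by distance from the bait in kb, with 1 line per group (n = 3 libraries) and bars for the SD. Over the 12 libraries windows 8, 12, 13 and 14 stand highest, and windows 1 and 7 lowest.

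At the scale of single ends the highest contacts lay on or beside VH genes. The highest end (start 114709297, 356 bp to the promoter side of Ighv1-19) carried 1820 ± 603 CPM (SD, n = 12) and ranged from 591 CPM in mutant LPS + IL4 replicate 1 to 2848 CPM in WT LPS + IL4 replicate 3. The next were inside the pseudogenes Ighv1-33 (1480 ± 548 CPM) and Ighv7-3 (1389 ± 658 CPM), 141 bp to the promoter side of Ighv3-6 (1187 ± 504 CPM) and inside Ighv3-8 (1079 ± 515 CPM). All 5 were covered in 18 of 18 libraries, the LPS libraries included. Of the 10 highest ends, the one near Ighv1-26 was the exception at 5251 bp; the rest lay inside a gene or at most 356 bp to its promoter side. The end 185 bp from Ighv1-5, beside Mir7094-2 above, was the tenth.

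Averaged over all genes of the interval, the 86 ends inside a VH gene carried 118 ± 23.5 CPM per end (SD, n = 12). The 244 ends within 1 kb on the promoter side carried 78.1 ± 9.68 CPM per end, and the 196 ends within 1 kb on the side toward the bait carried 20.01 ± 4.24. By share of reads, a median of 10.8% over the 12 libraries lay inside genes, 21.0% within 1 kb on the promoter side and 4.28% within 1 kb on the bait side, and the rest lay farther from a gene. Farther out the sides differed less per end, with 34.4 against 26.9 CPM per end at 1 kb to 5 kb and 23.6 against 17.0 beyond 5 kb. The ratio of promoter-side to bait-side level within 1 kb was above 1 in 12 of 12 libraries, from 2.68 to 6.31 with a median of 4.05. Without the 10 highest ends it was 2.03 to 3.46, with a median of 2.71, so a few strong fragments carried part of it. An allele that joined a VH gene has lost the DNA between that gene and the D segment, on its bait side. The part of such alleles in this ratio was not tested.

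Genes listed as V segments showed 93.5 ± 11.03 CPM per end on the promoter side (135 ends) and 17.5 ± 4.65 on the bait side (138 ends), a ratio of 3.98 to 9.95. V pseudogenes showed 59.0 ± 12.9 (109 ends) and 26.0 ± 10.03 (58 ends), a ratio of 0.996 to 5.56 that was above 1 in 11 of 12 libraries. Ends inside the genes carried 103 ± 19.4 CPM per end for V segments and 139 ± 35.03 for pseudogenes. By library, the promoter-side level of V segments was 81.1, 91.6 and 99.2 CPM per end in WT resting cells, 100.1, 107 and 111 with LPS + IL4, 85.5, 75.5 and 93.0 in mutant resting cells and 82.7, 104 and 91.7 in mutant cells with LPS + IL4. Every one of these 12 values lay above the highest bait-side value, 25.1. The groups' mean ratios over all genes, 3.79 ± 1.01, 3.82 ± 0.411, 4.80 ± 1.31 and 3.82 ± 1.01 (WT resting, WT LPS + IL4, mutant resting, mutant LPS + IL4; SD, n = 3), differed by about their own SD.

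The files of the cultures with LPS alone, which hold covered ends only, gave the same order for the positions inside and within 1 kb of a gene. A median of 44.9% of the promoter-side ends within 1 kb was covered (38.5% to 49.6% over 6 libraries), against 31.9% of the bait-side ends (20.9% to 38.8%) and 51.7% of the ends inside genes (46.5% to 59.3%). Beyond 5 kb the order was not that of the reads, with 33.2% covered on the bait side and 32.4% on the promoter side. The median read ratio of the sides was 1.84 in the proximal and 3.31 in the distal segments, and whether the middle segments differ from them was not tested. This division by side was chosen after the values had been seen, so it is given as a description.

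**Figure D3:**
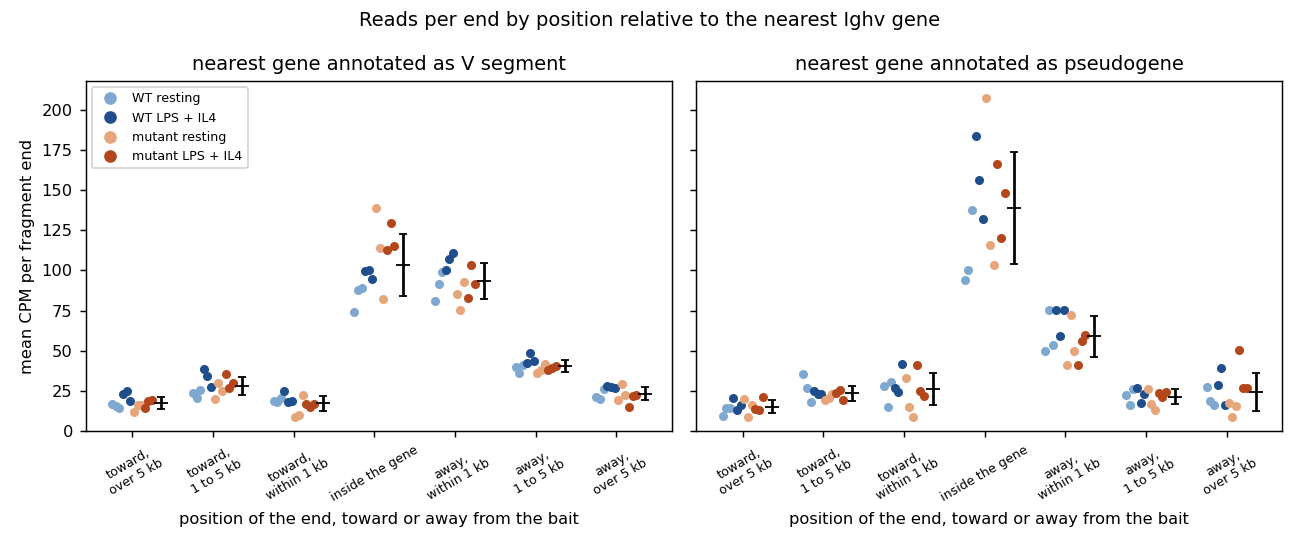
Reads per end in CPM by position relative to the nearest VH gene, with V segments and pseudogenes in separate panels. Positions run from more than 5 kb on the bait side, through the gene body, to more than 5 kb on the promoter side. Points are the 12 libraries with read counts, coloured by group, and bars mark the mean ± SD over them. In both panels the means are highest inside genes and within 1 kb on the promoter side. For V segments, ends within 1 kb on the bait side (8.59 to 25.1 CPM per end) lie below promoter-side ends at 1 kb to 5 kb (36.2 to 48.7). For pseudogenes these positions overlap. Over all genes together, which are not drawn, the mean was 118 CPM per end inside genes. Within 1 kb it was 78.1 on the promoter side and 20.01 on the bait side.

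By nearest gene within 10 kb, 2532 of the 2601 ends could be given to a VH gene, and they held 98.5% to 100% of the reads of the interval. The genes with the highest summed levels were Ighv3-6 (3932 ± 1077 CPM; SD, n = 12), Ighv14-4 (3375 ± 748), Ighv1-11 (3375 ± 1531), Ighv15-2 (3154 ± 813) and the pseudogene Ighv7-3 (2885 ± 1065). These sums follow how many ends lie near a gene and are not levels per length. Ighv1-11, in window 14, had 2347, 1733 and 2932 CPM in WT resting cells and 6364, 4174 and 3758 with LPS + IL4, and 1963, 1683 and 2425 CPM in mutant resting cells and 4173, 3181 and 5762 with LPS + IL4. In both genotypes its LPS + IL4 libraries lay above all resting libraries of that genotype.

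Ighv1 took 40875 CPM of the interval (45.5% of its reads), Ighv3 10504 (11.7%), Ighv6 5855 (6.52%), Ighv14 5788 (6.45%), Ighv10 4775 (5.32%) and Ighv15 4403 (4.90%). Ighv7, the S107 family known for antibodies to phosphorylcholine, took 3631 CPM (4.04%) and Ighv9 3241 (3.61%). Ighv12 and Ighv11, known from the antibodies of B-1 cells to phosphatidylcholine, took 3054 (3.40%) and 2058 (2.29%). The remaining families were Ighv8 with 1561 CPM (1.74%), Ighv4 with 1241 (1.38%), Ighv16 with 1053 (1.17%), Ighv13 with 835 (0.930%) and Ighv5 with 153 (0.170%). Ighv8 and Ighv5, which are mainly distal and proximal families, had only 2 and 1 of their genes here. Per end, Ighv10 (51.9 CPM), Ighv1 (47.9) and Ighv15 (41.1) were highest and Ighv13 (11.4) was lowest.

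**Figure D4:**
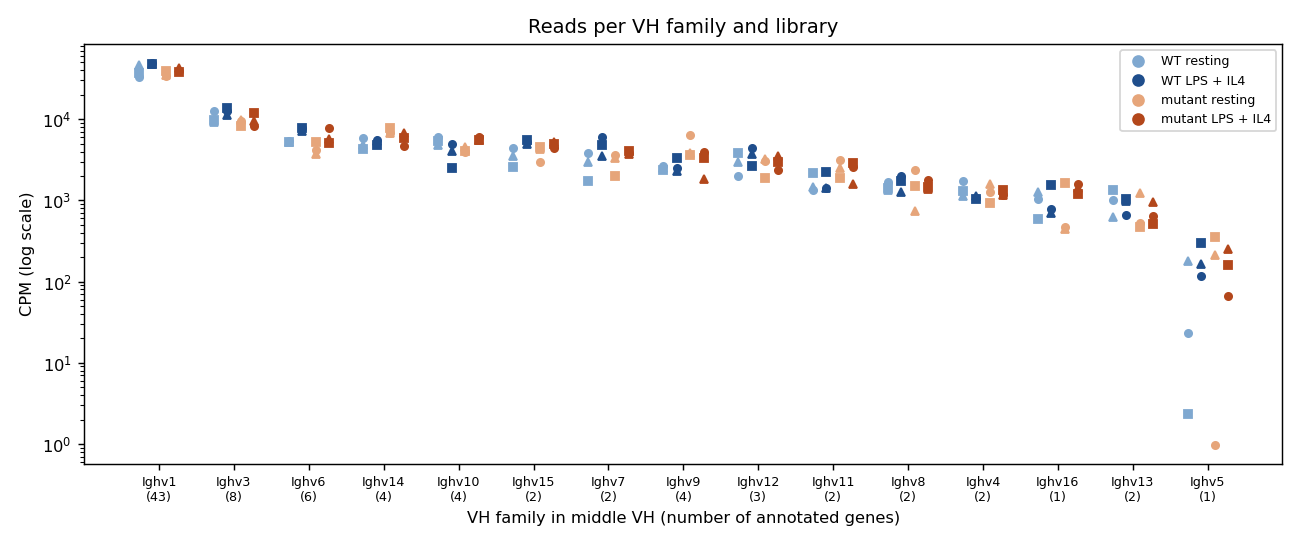
CPM of each of the 15 VH families with a gene in the interval, on a log axis; points are the 12 libraries with read counts, coloured by group. Ighv1 lies highest with a mean of 40875 CPM, and Ighv5, with 1 gene, lowest with 153 CPM.

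Activation of WT cells with LPS + IL4 raised the share of the middle VH segments from 8.43% to 10.2%, a log2 change of 0.27 ± 0.05 (SE; edgeR quasi-likelihood, adjusted p = 5.6e-05 over 10 segments of chromosome 12). Of these 10 segments 50% were called, 4 higher and 1 lower, so a call was common. The split of calls turned with the scaling, to 1 higher and 4 lower with DESeq2 size factors and to 1 higher and 2 lower with VH-side reads as library size. With DESeq2 the change of the middle segments was 0.04 (adjusted p = 0.544), and relative to VH-side reads it was 0.09 (adjusted p = 0.0544), so the rise is relative to the whole chromosome. Within the unlabelled sets it was 0.34 and 0.13. The call held in 19 of 22 alternatives, TMM factors among them, and was lost with DESeq2, VH-side reads and covered ends.

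The gain in WT cells was found on both sides of the middle of the interval, and not in all of it. Its nearer part, 500 kb to 1 Mb from the bait, went from 3.46% ± 0.330 to 4.15% ± 0.297 of the reads (SD, n = 3), and its farther part, 1 Mb to 1.5 Mb, from 4.96% ± 0.557 to 6.001% ± 0.172. Windows 16 to 19 within the farther part, singled out after their values had been seen, held 1.66%, 2.00% and 2.28% at rest and 1.91%, 1.96% and 1.99% with LPS + IL4, so no gain was found there. Of the 20 windows 14 had a positive log2 change, with a median of 0.26 against 0.08 over all 80 windows of the locus. In 10 windows (1, 4, 5, 6, 10, 11, 13, 14, 15 and 20) all activated libraries lay above all resting libraries, against 22.5% of all 80 windows. No middle window lay wholly below, against 12.5% of all 80.

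Only window 14 passed the test by edgeR in WT cells, against 6.25% of the 80 windows called higher and 11.2% called in either direction. Its levels were 6748, 5363 and 9837 CPM at rest and 13127, 11136 and 10634 CPM with LPS + IL4. The groups did not overlap, and the log2 change was 0.67 ± 0.19 (SE; adjusted p = 0.0195). Within the unlabelled sets it was 1.01 and 0.11, so it came mainly from the set with 2 WT libraries per day. Left out in turn, 3 WT libraries each ended this call: resting replicate 1 (0.61, with an adjusted p of 0.106), resting replicate 2 (0.49, with 0.190) and LPS + IL4 replicate 1 (0.57, with 0.122). Over the 80 windows the calls were 5 higher and 4 lower, and they became 1 and 6 with TMM factors, 3 and 6 with DESeq2, and 1 and 7 with VH-side reads, none of them in the middle segments. These scalings moved the median of all windows by -0.13, -0.11 and -0.18.

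Of the 15 families none passed in WT activation by edgeR (0% of 22 family units of the locus were called). An unadjusted p under 0.05 was found for 5 of them, against 5 of all 22 units. The family with the lowest p was Ighv6, the J606 family. It had 5342, 5213 and 5248 CPM at rest and 7821, 7712 and 7125 CPM with LPS + IL4, groups that did not overlap. Its log2 change was 0.52 ± 0.18 (SE; adjusted p = 0.0920). Ighv1 had 33424, 37583 and 46336 CPM at rest and 49132, 47301 and 48411 with LPS + IL4, a difference of 0.30 (adjusted p = 0.0920). In all, 12 of 15 families had a positive value, with a median of 0.15 against 0.21 over the 22 units, and among the negative ones was Ighv10 at -0.47 (adjusted p = 0.182), with groups that overlapped. Ighv4 lay wholly lower on activation, with 1724, 1308 and 1145 CPM at rest and 1058, 1047 and 1140 with LPS + IL4.

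In Med1 mutant cells LPS + IL4 raised the share of the interval from 8.30% to 9.03%, a log2 change of 0.12 ± 0.05 (SE; edgeR, adjusted p = 0.0293), in a comparison in which 60% of the 10 segments were called, 4 higher and 2 lower. All 3 activated libraries lay above all 3 resting libraries. The value was 0.12 within each unlabelled set. The call was lost without any of WT resting replicate 3, mutant resting replicate 1 or 3 and mutant LPS + IL4 replicate 2 or 3, with adjusted p from 0.0642 to 0.101, and with mutant replicate 1 left out on both days (0.12, adjusted p = 0.127). A block for the replicate number also ended the call. Relative to VH-side reads the change was -0.01 (edgeR adjusted p = 0.885) and with TMM factors -0.01 (adjusted p = 0.945). The split of segment calls became 3 and 3 with TMM and 2 and 2 with DESeq2 or with VH-side reads.

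Window 14 was again the sole window of the 20 to pass by edgeR, in a comparison with 10% of 80 windows called and 5% called higher (4 higher and 4 lower, or 3 and 6 with VH-side reads). Its levels were 6100, 6300 and 7121 CPM in mutant resting cells and 11931, 9329 and 11250 CPM with LPS + IL4. The groups were well apart, with a log2 change of 0.74 ± 0.19 (SE; adjusted p = 0.0113). Within the sets it was 0.97 and 0.61. It was 0.71 (adjusted p = 0.0503) without mutant LPS + IL4 replicate 3 and 0.62 (adjusted p = 0.0814) with mutant replicate 1 left out on both days.

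Covered ends in window 14 rose in number along with its reads. Of its 135 ends a mean of 72.3 were covered in WT resting libraries and 92.3 with LPS + IL4, and 57 and 90.3 in the mutant. Covered ends rose over chromosome 12 as well, and as a share of them the window differed by -0.05 on the log2 scale in WT (adjusted p = 0.791) and by 0.04 in the mutant (adjusted p = 0.935). With LPS alone, where reads are not given, a mean of 73.0 of its ends was covered in WT and 60.7 in the mutant.

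Elsewhere in the mutant, 13 of 20 windows had a positive value on activation (median 0.24, against 0.15 over the 80). Windows 7, 13 and 14 had all activated libraries above all resting ones, and none had them below, against 13.75% and 10% of all 80 windows. None of the 15 families passed (0% of 22 units), and 1 had an unadjusted p under 0.05, against 1 of all 22 units. That was Ighv6, with 4133, 5238 and 3754 CPM at rest and 7850, 5067 and 5754 CPM with LPS + IL4. These groups overlapped, and the difference was 0.51 ± 0.18 (SE; edgeR adjusted p = 0.113).

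At rest the genotypes did not differ in the share of the middle segments beyond the spread of the libraries, at -0.02 ± 0.05 on the log2 scale (SE, mutant over WT; edgeR adjusted p = 0.717), where 10% of the 10 segments were called. The values within the sets were 0.00 and -0.09. Relative to VH-side reads the value was 0.13 (adjusted p = 0.0410), so its sign and its call depend on the scale. That scale counts the distal segments, whose share was 5.90% ± 0.331 in WT and 4.00% ± 0.989 in mutant resting cells (SD, n = 3).

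None of the 20 windows passed at rest by edgeR (0% of 80 called), and 4 had an unadjusted p under 0.05, against 12 of all 80. Window 7, the lowest of the interval, had 3045, 1256 and 1486 CPM in WT and 304, 548 and 878 CPM in mutant cells, a difference of -1.74 ± 0.51 (SE; adjusted p = 0.0607). These values rest on few fragments, with 26, 23 and 25 of its 122 ends covered in WT and 7, 17 and 18 in mutant cells. Window 17 (chr12:114726026-114776025, from Ighv1-21-1 to Ighv1-24) had 3261, 4535 and 4737 CPM in WT and 1765, 2099 and 2520 CPM in mutant cells, a difference of -0.97 ± 0.28 (SE; adjusted p = 0.0607). In both windows all mutant libraries lay below all WT libraries, as they did in window 10, against 16.25% of the 80 windows. The signs were mixed over the interval, with 11 of 20 windows positive and a median of 0.04 against -0.15 over the 80.

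By family at rest, none of the 15 passed (4.55% of 22 units called), and 2 had an unadjusted p under 0.05, against 4 of all 22. Ighv14, the SM7 family, had 5851, 4338 and 4858 CPM in WT and 6682, 7761 and 6824 CPM in mutant cells, all above WT, for a difference of 0.50 ± 0.18 (SE; edgeR adjusted p = 0.0668). Much of this lay at Ighv14-4, with 3393, 2646 and 2576 CPM in WT and 3602, 5085 and 4506 in mutant cells. Ighv9 had 2667, 2390 and 2477 CPM in WT and 6444, 3664 and 3864 in mutant cells, again without overlap, for a difference of 0.89 ± 0.34 (SE; adjusted p = 0.0690). Both families lie in the nearer part of the interval, whose share was 3.46% ± 0.330 in WT and 3.67% ± 0.231 in mutant cells.

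With LPS + IL4 the share of the interval was lower in Med1 mutant cells, at 9.03% against 10.2%, a log2 difference of -0.17 ± 0.05 (SE; edgeR adjusted p = 0.0189). All 3 mutant libraries lay below all 3 WT libraries, and 10% of the 10 segments were called, the middle VH segments being the call. The difference was -0.22 and -0.10 within the unlabelled sets. It depended on the scale: with DESeq2 size factors it was -0.03 (adjusted p = 0.675), and relative to VH-side reads 0.02 (edgeR adjusted p = 0.575). It also lost its call with reads per end capped at the 99th percentile (-0.08, adjusted p = 0.331), and without any of WT resting replicate 3, WT LPS + IL4 replicate 1 or 2 and mutant LPS + IL4 replicate 1 or 2 (adjusted p from 0.0558 to 0.100). The call held in 12 of 22 alternatives, TMM factors among them.

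Both parts of the interval had lower means in the mutant with LPS + IL4, at 3.76% ± 0.237 against 4.15% ± 0.297 in the nearer part and 5.27% ± 0.273 against 6.001% ± 0.172 in the farther part (SD, n = 3). In the farther part the WT libraries (5.89% to 6.20%) lay above the mutant libraries (4.96% to 5.48%). Windows 16 to 19 alone held 1.91%, 1.96% and 1.99% in WT and 1.02%, 1.40% and 1.56% in mutant cells, with a negative log2 difference in 4 of 4 windows and a median of -0.58. Much of the difference over the interval thus lay in these windows, which were singled out after their values had been seen. At rest the same windows held 1.66%, 2.00% and 2.28% in WT and 1.26%, 1.95% and 1.49% in mutant cells, which overlapped. Their log2 difference at rest was negative in 4 of 4 windows, with a median of -0.24, so the lower level was not confined to LPS + IL4. With LPS + IL4 no middle window passed by edgeR (1.25% of 80 called), and 2 had an unadjusted p under 0.05, against 7 of all 80. Window 17 had the lowest p, with 3129, 5090 and 3877 CPM in WT and 1659, 2850 and 3156 in mutant cells, groups that overlapped slightly, for a difference of -0.66 (adjusted p = 0.426). Of the 20 windows 16 were negative, with a median of -0.19, which was also the median over all 80 windows.

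No family passed with LPS + IL4 (4.55% of 22 units called), while 3 had an unadjusted p under 0.05, against 5 of all 22. Ighv1 had 49132, 47301 and 48411 CPM in WT and 39418, 38023 and 42351 CPM in mutant cells, which did not overlap, for a difference of -0.27 ± 0.11 (SE; edgeR adjusted p = 0.0944). Ighv10 went the other way, with 5012, 2493 and 4090 CPM in WT and 6033, 5498 and 5555 in mutant cells, again without overlap, for a difference of 0.56 ± 0.23 (SE; adjusted p = 0.0944). Ighv3 had 12688, 13747 and 11179 CPM in WT and 8129, 11803 and 9602 in mutant cells, overlapping groups with a difference of -0.35 (adjusted p = 0.165). Ighv4 lay wholly higher in the mutant, with 1058, 1047 and 1140 CPM in WT and 1159, 1347 and 1173 in mutant cells.

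Whether activation acted differently in the genotypes was tested by the interaction. For the whole interval it was -0.15 ± 0.07 on the log2 scale (SE, change in mutant minus change in WT; edgeR adjusted p = 0.243, unadjusted p = 0.0383), and 0% of the segments were called. Within the sets it was -0.22 and -0.01. The larger change on activation in the WT is therefore not shown to differ from the change in the mutant. By window 0% of 80 were called and 1 middle window had an unadjusted p under 0.05, against 1 of all 80. That was window 8, with 7899, 8518 and 6972 CPM at rest and 8481, 11088 and 8334 with LPS + IL4 in WT, and 10687, 8039 and 8598 at rest and 5663, 8760 and 6916 with LPS + IL4 in the mutant. Its interaction was -0.61 (adjusted p = 0.949). By family 0% of 22 units were called, and the lowest p was for Ighv10, at 0.92 ± 0.32 (SE; adjusted p = 0.115), whose resting levels were 5956, 5326 and 4788 CPM in WT and 3956, 4014 and 4578 in mutant cells.

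**Figure D5:**
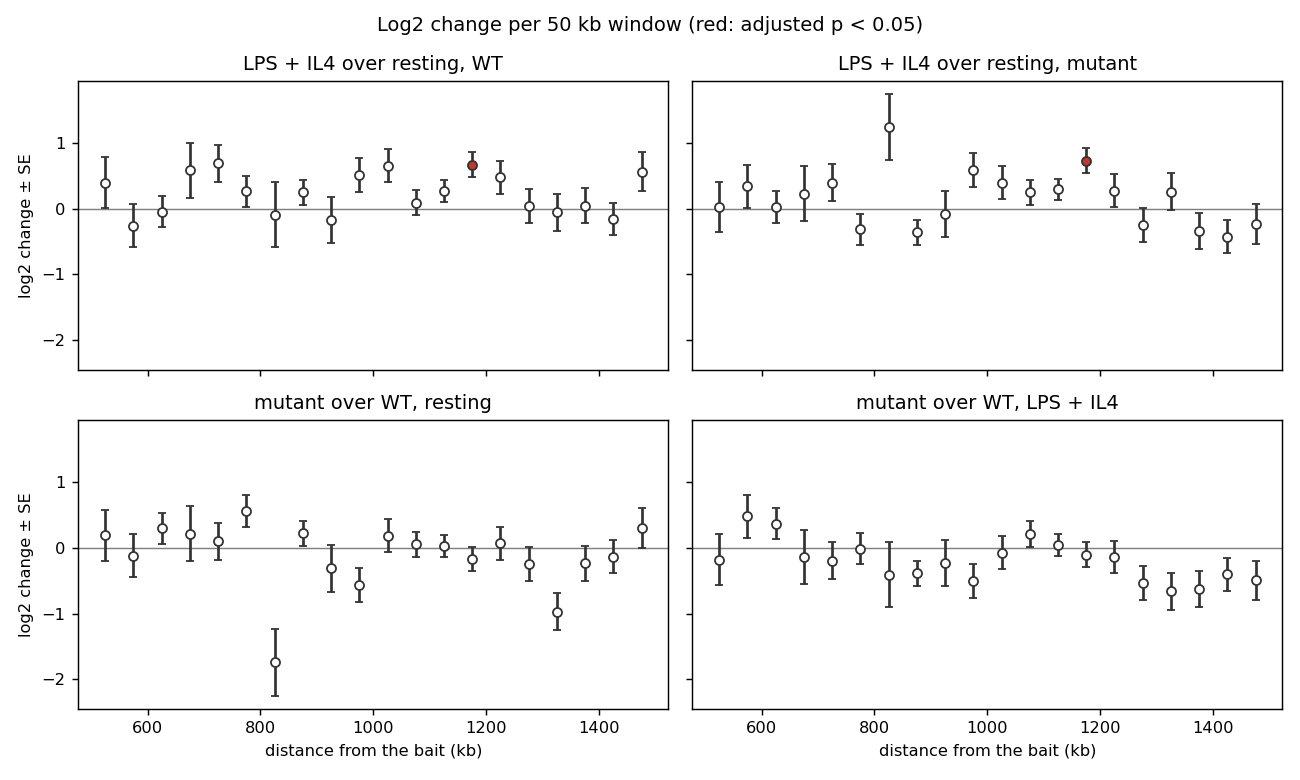
Log2 change of each of the 20 windows of the interval by edgeR (point, with its standard error as a bar) against distance from the bait in kb, for activation in WT, activation in the mutant, genotype at rest and genotype with LPS + IL4. Window 14 is the one window called in both activation panels (0.67 and 0.74), and no window is called in the genotype panels.

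The middle segments were also set against their neighbours, which removes the choice of a library size. The log2 ratio of middle to distal reads was 0.55, 0.36 and 0.64 in WT resting and 0.79, 0.74 and 0.71 in WT LPS + IL4 libraries. It was 1.502, 0.81 and 0.94 in mutant resting and 1.26, 0.87 and 0.96 in mutant LPS + IL4 libraries. On each day all 3 mutant values lay above all 3 WT values. The mean genotype difference was 0.43, with 0.57 at rest and 0.28 with LPS + IL4 (two-sided exact permutation within days, p = 0.005, the smallest that 400 arrangements can give; adjusted p = 0.02 over 4 ratio tests). It was 0.39 (adjusted p = 0.06) without WT resting replicate 2, and 0.77 and 0.22 within the unlabelled sets. This test takes the days as independent, although the mutant values were alike at equal replicate numbers on both days. With the replicate number as the unit the exact permutation p was 0.1, the smallest that design allows, and the adjusted p was 0.281, so the call does not hold there. Of the segments in this ratio, the distal share was 6.05% ± 0.099 in WT and 4.46% ± 0.636 in mutant LPS + IL4 cells (SD, n = 3), and the middle share 10.2% and 9.03%.

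Against the proximal segments the log2 ratio was 0.78, 0.75 and 0.83 in WT resting, 0.86, 0.87 and 0.95 in WT LPS + IL4, 0.65, 0.80 and 0.71 in mutant resting and 0.51, 0.84 and 0.83 in mutant LPS + IL4 libraries. The genotypes overlapped at rest, while with LPS + IL4 every mutant value lay below every WT value. The mean genotype difference was -0.12 (exact permutation p = 0.035, adjusted p = 0.07). It was -0.07 at rest and -0.16 with LPS + IL4, and -0.24 and -0.09 within the sets. Activation moved neither ratio past the threshold, with 0.06 against the proximal segments (exact permutation p = 0.375, adjusted p = 0.5) and 0.09 against the distal segments (exact permutation p and adjusted p = 0.51).

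In the cultures with LPS alone the middle segments held 10.9% ± 0.535 of the covered ends of chromosome 12 in WT and 10.8% ± 0.760 in mutant cells (SD, n = 3). The log2 difference was -0.01 ± 0.08 (SE; limma adjusted p = 0.945), and the sign turned when WT LPS replicate 2 or mutant LPS replicate 3 was left out. By limma 0% of the segments, of 78 windows and of 20 family units were called, the 20 windows and 14 tested families of the interval included. An unadjusted p under 0.05 was found for 1 of those windows, against 3 of all 78, and for none of those families. The lowest p was in window 20 (chr12:114876026-114926025, from Ighv1-36 to Ighv1-40), at 0.34 (adjusted p = 0.569), and in Ighv6, at -0.18 (adjusted p = 0.934). A covered end is counted whether it holds few or many reads, and what size of change in reads would be missed was not tested. The LPS libraries have no resting group of their own, so a change on activation, as in window 14, could not be tested among them.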

How the data were processed

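The submitters' processing notes give mm10 as the assembly, with Bowtie named for the resting and LPS + IL4 samples and Bowtie2 for the samples with LPS alone; mapping parameters are not given in the sources used here. Per the file headers, each of the 12 files with values lists 24 bp intervals at fragment ends with their deposited raw counts. Those of the 6 LPS libraries are lists of covered ends with no value, so no counts could be tested there. In the first deposit 6 samples are titled WTKO but carry the genotype label WT, which was followed.

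Reads were summed over 10 segments of chromosome 12, over 80 windows of 50 kb (up to 1 Mb toward the constant genes and 3 Mb toward the VH genes), and over VH families (the nearest Ighv gene of the supplied RefSeq table within 10 kb) by segment. Units with a mean of at least 10 were kept. The counts were then modelled with edgeR 4.0.16 (robust quasi-likelihood, group means, chromosome 12 reads more than 5 kb from the bait as library size, no TMM) in R 4.3.3. For LPS libraries the share of covered ends (pseudocount 1) was fitted on the log2 scale with limma 3.58.1. P-values were two-sided, adjusted by Benjamini-Hochberg over each table, with a threshold of 0.05. Ratios between segments were tested by exact permutation within strata.

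Named were all families, the first and last gene, the 5 highest and 2 lowest windows, the 5 highest genes and ends, and per comparison the called units or the one with the lowest p; window 7 at rest, which shares its adjusted p with window 17, further families, window 10 and the ends ranked below the fifth were added after values had been seen. Members and lists were chosen with earlier results of these data known. Of the fits, only edgeR on 50 kb windows in WT activation was run on simulated counts, drawn with the spread estimated from these data. Alternatives were other scalings (DESeq2 1.42.0 among them), filters, window sizes, gene distances, caps, covered ends, only the compared groups, a block for the replicate or the library set, and each library left out; leaving out mutant replicate 1 on both days was chosen after seeing the data. Python 3.11.15, numpy 2.4.6, pandas 2.3.3, scipy 1.17.1 and matplotlib 3.10.9 did the rest.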

Additional observations from a re-analysis of the deposited data

How the results depend on the processing

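The WT activation of the interval (0.27) was 0.0397 with DESeq2, 0.0942 with VH-side reads and 0.0206 on covered ends; the mutant activation (0.12) was -0.00787 with TMM, 0.0585 with DESeq2, -0.00919 with VH-side reads, 0.0390 on covered ends, 0.11 with 10 kb around the bait left out, and 0.12 without mutant replicate 1, all without a call. The difference at rest became 0.13 with VH-side reads. With LPS + IL4 it was -0.0328 with DESeq2, 0.0237 with VH-side reads, -0.0841 with capped reads, -0.0876 on covered ends and -0.16 without mutant replicate 1, again without a call; the interaction became 0.0188 with DESeq2 and 0.0184 on covered ends. The calls of windows in WT activation numbered 0 with TMM, DESeq2, VH-side reads and covered ends, 2 with capped reads, only the compared groups, the set block, windows of 100 kb and without mutant replicate 1. They were 0 in mutant activation without mutant replicate 1, 2 at rest with the set block, 1 at rest without mutant replicate 1 and 1 with LPS + IL4 and the set block. Family calls at rest were 2 with TMM or VH-side reads and 1 with DESeq2, the set block or without mutant replicate 1; they were 1 for the interaction with TMM or capped reads, 1 with LPS + IL4 by VH-side reads, the compared groups or the set block, 1 in WT activation with capped reads, the compared groups, 2 kb around genes or without mutant replicate 1, 2 there with the set block, and 1 in mutant activation with capped reads. On covered ends window 14 in WT was -0.0508 and Ighv10 with LPS + IL4 was -0.0024. Leaving out each library gave 0.24 to 0.31 for WT activation, 0.11 to 0.14 for mutant activation, -0.0524 to 0.0164 at rest, -0.20 to -0.14 with LPS + IL4, -0.19 to -0.12 for the interaction (adjusted p = 0.0484 without WT LPS + IL4 replicate 3) and -0.0608 to 0.0403 with LPS alone. Window calls ranged from 0 to 1 in WT and 0 to 2 in mutant activation, family calls from 0 to 1 in WT activation, with LPS + IL4 and for the interaction, and 0 to 2 in mutant activation and at rest. The ratios ranged from 0.0282 to 0.11 and -0.15 to -0.0633 against proximal segments (activation, genotype) and 0.32 to 0.49 against distal segments for genotype. Same-numbered libraries correlated over days for replicates 1 and 2 (0.28 to 0.55) and hardly for replicate 3 (0.02 and 0.03). Over genotypes they did not correlate (-0.17 to 0.08). The main fits did not pair the samples by number, so a pairing over days is not part of their p-values. With a replicate block the mutant activation was 0.12 (edgeR adjusted p = 0.0760), and windows called were 3 in WT and 2 in mutant activation. The middle to distal genotype ratio was then 0.43 (exact permutation, adjusted p = 0.281). Causes of these changes were not tested.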
